A study of Mus musculus with 4 samples.

Results

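The miR-200 family is a group of 5 microRNAs (miRNAs, small RNAs that silence messenger RNAs) made from 2 genomic clusters, and its levels were compared between mouse liver tumours and normal livers. All 5 members, mmu-miR-200a, mmu-miR-200b, mmu-miR-429, mmu-miR-200c and mmu-miR-141, were found by probe name among 566 mouse miRNA probes in a table of 618 probes. The samples were 2 liver tumours and 2 normal livers. Per the labels, female NF2fl/fl mice, in which both copies of Nf2 can be cut out by Cre recombinase, received either AAV2/8-Cre or PBS, and livers were inspected 50 weeks later. AAV2/8-Cre is a viral vector that reaches hepatocytes and removes the gene there. Its product, merlin, is a tumour suppressor that restrains YAP through Hippo signalling. The protocols give 3 mice without dividing them between treatments, and no label names the promoter that drives Cre. The labels call the control tissue normal liver without saying that it came from the PBS mice. Whether replicates are different mice is not stated, so p-values measure only the spread among these 4 samples, part of which may be technical.

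MiR-200 miRNAs keep cells epithelial by repressing the transcription factors ZEB1 and ZEB2, which switch off E-cadherin. In normal liver they are known from bile duct cells more than from hepatocytes. The members fall into a pair of seed classes, the seed being bases 2 to 8 of the miRNA, which pair with target messenger RNAs. Each genomic cluster encodes members of both classes.

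The mature sequences show why both groupings are needed: all 5 are near copies, and the seeds, in capitals, differ at a single base. The probe names carry no arm, and the 3p arms of RefSeq (build GRCm38.p6) are shown, matched for 5 of 5 members, since the older names without an arm stand for them. Members of the chromosome 4 cluster come before those of the chromosome 6 cluster.
miR-200b: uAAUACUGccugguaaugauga
miR-200a: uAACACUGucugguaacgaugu
miR-429: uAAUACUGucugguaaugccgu
miR-200c: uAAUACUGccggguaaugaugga
miR-141: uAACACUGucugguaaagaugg

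MiR-200b, miR-429 and miR-200c shared the seed AAUACUG, and miR-200a and miR-141 shared AACACUG. No other mouse miRNA among 1679 mature names of the RefSeq table had either seed. The seeds differed by U4C, from miR-200b to miR-200a, with positions counted from 1 at the 5′ end of the mature miRNA. Over the 22 bases that all 5 have in common, the closest pairs joined the clusters. MiR-200b and miR-200c were identical at 20 bases and differed by U11G and A22G, and miR-200a and miR-141 were identical at 20 bases and differed by C17A and U22G. Pairs within a cluster were identical at 18 bases.

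The first cluster lies at chr4:156053905-156055750 on the minus strand (RefSeq GRCm38.p6), a span of 1846 bases. Its hairpins run miR-200b, miR-200a, miR-429 in the direction of transcription, with gaps of 695 and 908 bases, and the RefSeq gene Gm13648 overlaps them. The second lies at chr6:124717914-124718390 on the minus strand, a span of 477 bases between Phb2 and Ptpn6. There miR-200c precedes miR-141 by a gap of 336 bases, and no other RefSeq gene overlaps them.

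The assay, nCounter of NanoString, counts colour-coded probes one by one after a tag is ligated to each miRNA. The deposited values are scaled counts, whole probe counts times 1 factor per sample, and the counts could be recovered from them. Recovered counts of mouse miRNAs totalled 239727 and 123818 in the tumours and 68260 and 62054 in the normal livers, with factors of 0.395 and 0.9051 against 2.086 and 2.296. A miRNA was taken as detected in a sample where its count exceeded the mean plus 2 SD of the negative controls there, 17.6 and 14.9 counts in the tumours and 18.3 and 11.2 in the normal livers. Because of the factors, the mean negative control amounted to 2.96 and 6.94 scaled counts in the tumours and 18.4 and 17.6 in the normal livers. Background alone thus lay lower in the tumours on the deposited scale, with a median log2 difference of -1.86 over the 6 negative controls and -1.75 over 33 probes for viral miRNAs. By the detection rule, 12 and 2 of these 33 viral probes were detected in the tumours and 5 and 9 in the normal livers. A count just above the threshold is therefore weak evidence of presence. Hepatocyte miR-122, which marks liver tissue, took 13.2% and 14.6% of mouse miRNA counts in the tumours and 17.2% and 20.4% in the normal livers.

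A rise was measured for the chromosome 4 cluster, and a change in the chromosome 6 cluster was not detectable at this depth. The 3 members of the chromosome 4 cluster rose in the tumours, by 6.02-fold for miR-200b, 8.29-fold for miR-200a and at least 8.03-fold for miR-429. Both chromosome 6 members, miR-200c and miR-141, lay under the detection threshold except in liver tumour 1. There they reached 1.88 and 1.59 times the threshold, which 12 of the 33 viral probes also exceeded in that sample. Tests were made with limma on log2(scaled count + 1), two-sided, with Benjamini-Hochberg adjustment over 276 miRNAs whose mean log2 value exceeded 3.93, a limit set by the negative controls. Of the 5 members 4 passed that filter, and miR-141 did not. At an adjusted p under 0.05, 3 members were called higher and 1 lower in the tumours, where 7.97% of all 276 miRNAs were called higher and 46.7% lower. The lower call, miR-200c, rests on values at or near background, as described with that member. The median log2 difference over all 276 was -0.90.

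**Figure D1:**
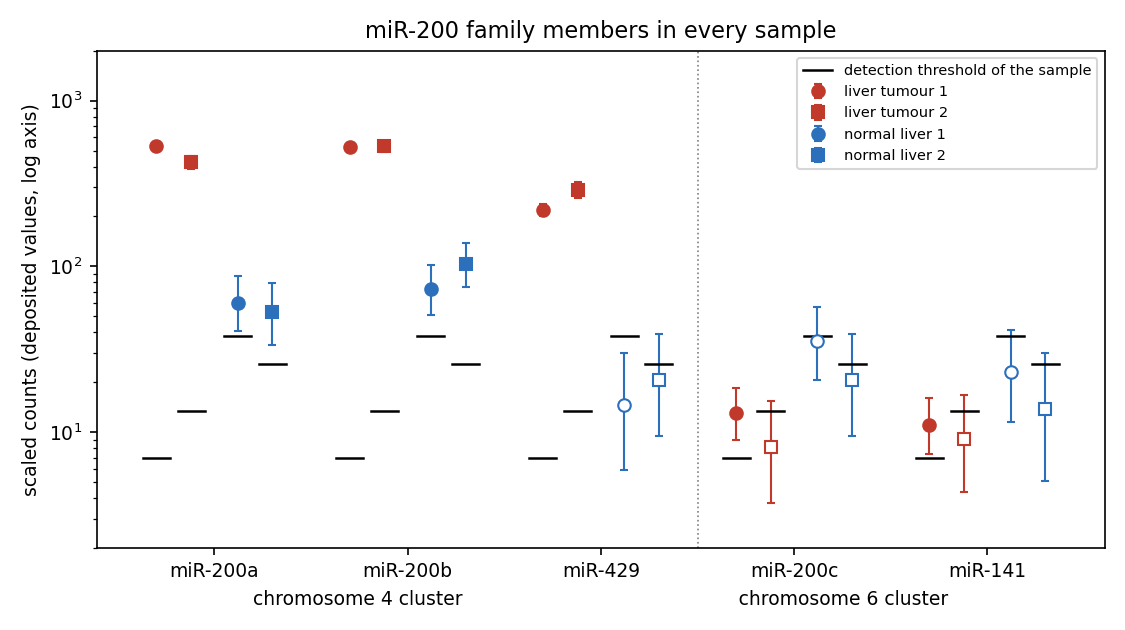
Scaled counts of the 5 family members in each of the 2 liver tumours (red) and 2 normal livers (blue), on a log axis; filled points were detected, open points were not, bars are exact Poisson 95% intervals of the count, and black ticks are each sample's detection threshold. The chromosome 4 members reach 219 to 532 in the tumours, and the chromosome 6 members lie at 8.15 to 35.5 in all 4 samples.

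MiR-200b, which carries the seed AAUACUG and leads the chromosome 4 cluster, had 525.8 and 529 scaled counts in the tumours against 73 and 103 in the normal livers. The tumours held nearly the same level on this scale, though they lay 1.53-fold apart with the positive controls made equal, and the lower of them lay 5.09 times above the higher normal liver. The recovered counts behind these values were 1331 and 585 in the tumours and 35 and 45 in the normal livers, with exact Poisson 95% intervals of 24.4 to 48.7 and 32.8 to 60.2 in the normal livers. Intervals here cover counting error only. The log2 difference was 2.59 (SE 0.28, 95% interval 1.90 to 3.27, limma adjusted p = 0.00274), a rise in 2 of 2 tumours.

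MiR-200a, encoded next to it with the other seed, had 532 and 425 scaled counts in the tumours against 60.5 and 52.8 in the normal livers. The groups did not overlap, and the lower tumour lay 7.03 times above the higher normal liver. Its recovered counts were 1347 and 470 in the tumours and 29 and 23 in the normal livers. In the normal livers that was 1.58 and 2.06 times the detection threshold, and 1 and 2 of the 33 viral probes counted as high or higher. The log2 difference was 3.05 (SE 0.27, 95% interval 2.40 to 3.70, limma adjusted p = 0.0017).

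MiR-429, the last hairpin of the cluster and a carrier of the seed AAUACUG, had 219 and 289 scaled counts in the tumours against 14.6 and 20.7 in the normal livers. It was detected in both tumours, at 554 and 319 counts, and in neither normal liver, at 7 and 9 counts, where 24 and 18 of the 33 viral probes counted as high or higher. Its rise is therefore given as a lower bound of 8.03-fold, the tumours set against the scaled detection thresholds of the normal livers (geometric means; 7.81-fold where 1 is added to each value first). The measured means were 254 ± 49.4 in the tumours and 17.6 ± 4.29 in the normal livers (SD, n = 2 each), with a fitted log2 difference of 3.78 (SE 0.30, limma adjusted p = 0.0014).

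Fitted differences of these 3 were the 3 largest rises among the 276 miRNAs, with that of miR-429 resting on normal liver values at background. Subtraction of each sample's mean negative control ended 2 of the 3 calls. The limma adjusted p was 0.0526 for both miR-200b (log2 difference 2.92) and miR-429 (6.94) and 0.022 for miR-200a (3.58). Subtracted values under 0 were set to 0, as for miR-429 in normal liver 1 (14.6 against a mean control of 18.4). The 6.94 of miR-429 thus depends on the 1 added before the log and is not a measured size. Under that setting limma called 2.9% of all 276 higher and 0% lower, with 29 differences above 0 and 57 below 0 at an unadjusted p under 0.05, against 25.7% and 14.1% in edgeR on the counts. The 3 calls held at adjusted p = 0.0411 without normal liver 1, where 3.99% of all 276 were called higher and 27.5% lower, and at 0.0422 without normal liver 2, where 2.54% and 17% were. In both fits the remaining normal liver is assumed to vary like the tumours.

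**Figure D2:**
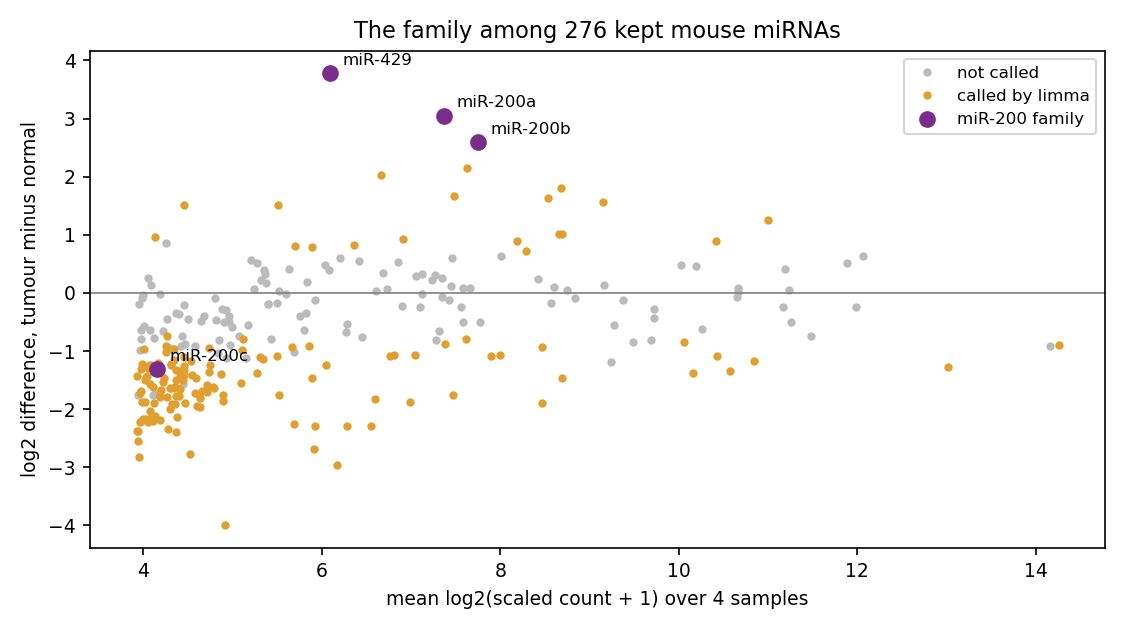
Log2 difference, tumour minus normal, against the mean log2(scaled count + 1) over the 4 samples for the 276 miRNAs tested, each point a miRNA; orange points passed an adjusted p of 0.05 in limma. MiR-429, miR-200a and miR-200b stand at 3.78, 3.05 and 2.59, and miR-200c lies at -1.31 among the low miRNAs, most of which were called lower.

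MiR-200c differs from miR-200b at 2 of 22 bases and shares its seed, yet it had 13 and 8.15 scaled counts in the tumours against 35.5 and 20.7 in the normal livers. The scaled values of the tumours lay below both normal livers. The recovered counts ran differently, at 33 and 9 in the tumours and 17 and 9 in the normal livers, and only the 33 counts of liver tumour 1 (Poisson interval 22.7 to 46.3) exceeded the detection threshold. There, 2 of the 33 viral probes counted as high or higher, and the figure was 8 in liver tumour 2 and 7 and 18 in the normal livers. Limma called miR-200c lower (log2 difference -1.31, SE 0.37, adjusted p = 0.0238). That value lay within the range of the 6 negative controls on the same scale, -2.58 to -1.09. It passed the filter only through the normal livers, so no fold is given. The call was lost without liver tumour 2 (adjusted p = 0.0723), normal liver 1 (0.148) or normal liver 2 (0.0634), and edgeR (quasi-likelihood, recovered counts) did not make it (log2 difference -0.48, adjusted p = 0.379).

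MiR-141, which shares the seed of miR-200a and lies beside miR-200c, had 11.1 and 9.05 scaled counts in the tumours against 22.9 and 13.8 in the normal livers. Its recovered counts were 28 and 10 in the tumours and 11 and 6 in the normal livers, and only the 28 counts of liver tumour 1 exceeded the threshold. In the normal livers 17 and 28 of the 33 viral probes counted as high or higher. The log2 difference of the scaled values was -0.77, and limma on all 566 probes without a filter gave it an adjusted p of 0.122. A change in either chromosome 6 member was thus not detectable at this depth.

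Counts of the near-identical miRNAs can be set against each other, since a probe may count its neighbour. In the tumours, where miR-200b was abundant, the miR-200c count was 2.48% and 1.54% of the miR-200b count. The miR-141 count was 2.08% and 2.13% of the miR-200a count. Whether those counts came from the neighbouring sequence, and whether the probes for miR-200a, miR-200b and miR-429 count each other, was not tested, and the probe sequences were not used here.

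Shares of counts do not depend on the scaling factors. The whole family made up 1.37% (exact binomial 95% interval 1.33 to 1.42) and 1.13% (1.07 to 1.19) of mouse miRNA counts in the tumours, against 0.145% (0.118 to 0.177) and 0.148% (0.12 to 0.182) in the normal livers. The shares of the tumours stood apart from those of the normal livers by more than either pair differed within itself, and the ratio of the mean shares was 8.52. No background was subtracted from these shares. The normal livers held 99 and 92 family counts over the 5 probes, where the mean negative control was 8.83 and 7.67 counts per probe. The normal liver shares and the ratio thus rest in part on background. The chromosome 4 cluster took 1.35% and 1.11% in the tumours against 0.104% and 0.124% in the normal livers. The chromosome 6 cluster took 0.0254% and 0.0153% against 0.041% and 0.0242%, which includes background counts. Of all family counts, 1.85% and 1.36% in the tumours and 28.3% and 16.3% in the normal livers came from chromosome 6 probes. The normal liver figures rest on 28 and 15 counts from probes that were not detected there, so they do not measure the makeup of the family.

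Within each sample, the mean log2 value of the chromosome 4 members exceeded that of the chromosome 6 members by 4.92 and 5.39 in the tumours and by 0.49 and 1.47 in the normal livers. The gap between the clusters was 4.18 log2 units wider in the tumours. It is taken against chromosome 6 values of which 6 of 8 were not detected, and with miR-429 undetected in the normal livers, so its size rests in part on background. The chromosome 4 mean differed by 3.14 and the chromosome 6 mean by -1.04 between tumours and normal livers on the deposited scale, where the negative controls differed by -1.86. Grouping by seed gave a smaller contrast. Members with the seed AAUACUG exceeded those with AACACUG by 0.55 and 0.78 in the tumours and by -0.14 and 0.38 in the normal livers, a shift of 0.55 (0.29 to 0.81 with 1 sample left out). The classes draw unequally on the clusters, so this contrast carries part of the cluster gap. Within chromosome 4, miR-200b and miR-429 together against miR-200a gave -0.65 and -0.12 in the tumours and -0.86 and -0.18 in the normal livers, a shift of 0.13 that was smaller than the spread within either group. Each seed class held 1 chromosome 6 member at or near background beside its members from chromosome 4. AAUACUG also held miR-429, which was at background in the normal livers, so the classes were not balanced in this. The class mean differed by 1.69 for AAUACUG and by 1.14 for AACACUG. These contrasts are scores over the members and carry no p.

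**Figure D3:**
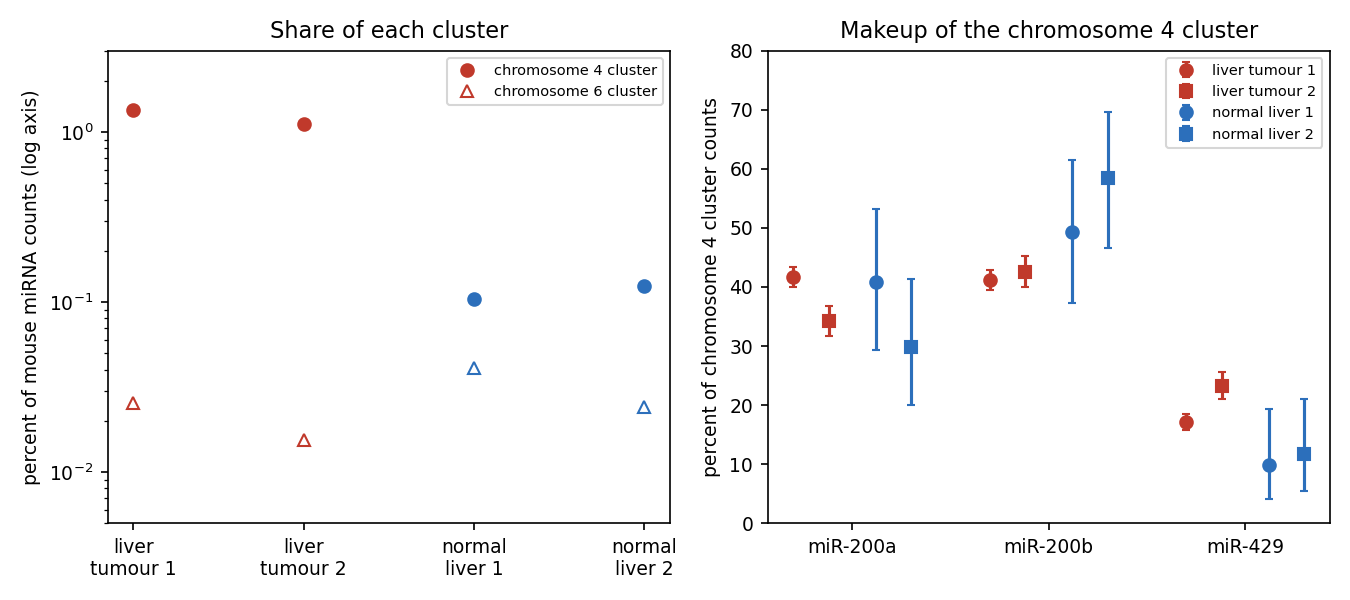
Left, the percent of mouse miRNA counts taken by the chromosome 4 (filled circles) and chromosome 6 (open triangles) clusters in each sample, on a log axis; right, the percent of chromosome 4 cluster counts taken by each member, with exact binomial 95% intervals. The chromosome 4 share is 1.35% and 1.11% in the tumours and 0.104% and 0.124% in the normal livers. The miR-429 part of the cluster is 17.1% and 23.2% in the tumours and 9.86% and 11.7% in the normal livers. Its intervals overlap between the groups, except those of liver tumour 2 and normal liver 1.

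The makeup of the chromosome 4 cluster was compared within samples. MiR-429 gave 17.1% (exact binomial 95% interval 15.9 to 18.5) and 23.2% (21 to 25.5) of the cluster's counts in the tumours, against 9.86% (4.06 to 19.3) and 11.7% (5.49 to 21) in the normal livers. The tumours' shares lay above those of the normal livers. The interval of liver tumour 1 overlapped those of both normal livers. That of liver tumour 2 lay above the interval of normal liver 1 and touched that of normal liver 2. MiR-200b gave 41.2% (39.5 to 42.9) and 42.6% (39.9 to 45.2) in the tumours against 49.3% (37.2 to 61.4) and 58.4% (46.6 to 69.6) in the normal livers. The interval of normal liver 2 lay above those of both tumours. The normal liver parts come from 71 and 77 cluster counts, from which no background was subtracted. MiR-200a gave 41.7% (40 to 43.4) and 34.2% (31.7 to 36.8) in the tumours, so that the tumours differed from each other beyond counting error, against 40.8% and 29.9% in the normal livers.

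Ratios between pairs of these members were compared in 3 tests. The log2 ratio of miR-429 to miR-200b was -1.26 and -0.87 in the tumours and -2.25 and -2.27 in the normal livers, a shift of 1.19. For miR-200a over miR-429 it was 1.28 and 0.56 in the tumours and 1.98 and 1.31 in the normal livers, a shift of -0.73. Neither pair of groups overlapped, but the exact two-sided permutation test of 2 against 2 samples cannot go below 0.333, the value of both (0.5 after Benjamini-Hochberg adjustment). MiR-200a over miR-200b was 0.017 and -0.32 in the tumours and -0.27 and -0.96 in the normal livers, where the groups overlapped (exact permutation p = 0.667, adjusted p = 0.667). The miR-429 ratios rest on normal liver counts at background, and the shift for miR-429 over miR-200b was 4.03 once the mean negative control was subtracted. That subtraction left miR-429 at 0 in normal liver 1, so the 4.03 depends on the 1 added before the log.

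The deposited factors fix the geometric mean of the 100 most abundant miRNAs at the same value in every sample, so other scalings were set beside them. With totals made equal, the log2 differences were 3.05 for miR-200b, 3.51 for miR-200a and 4.23 for miR-429, and with the positive controls made equal they were 3.61, 4.06 and 4.77. The median over all 276 miRNAs was -0.45 and 0.092 under these 2 scalings. With equal totals, 12.3% of all 276 were called higher and 26.8% lower, and with equal positive controls 15.9% and 3.62%. Quantile normalization gave 2.80, 3.24 and 4.41 and called 6.88% of all 276 higher and 5.07% lower. EdgeR's quasi-likelihood test gave 3.44, 3.93 and 4.69, each with an adjusted p of 1.53e-05, while calling 25.7% of all 276 higher and 14.1% lower. The 3 members were called higher under each of these scalings. All of them raised the tumours relative to the deposited scaling. MiR-200c went to -0.87 with equal totals, -0.34 with equal positive controls and 0.014 with quantile normalization, none of which was called (adjusted p = 0.111, 0.661 and 0.991).

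**Figure D4:**
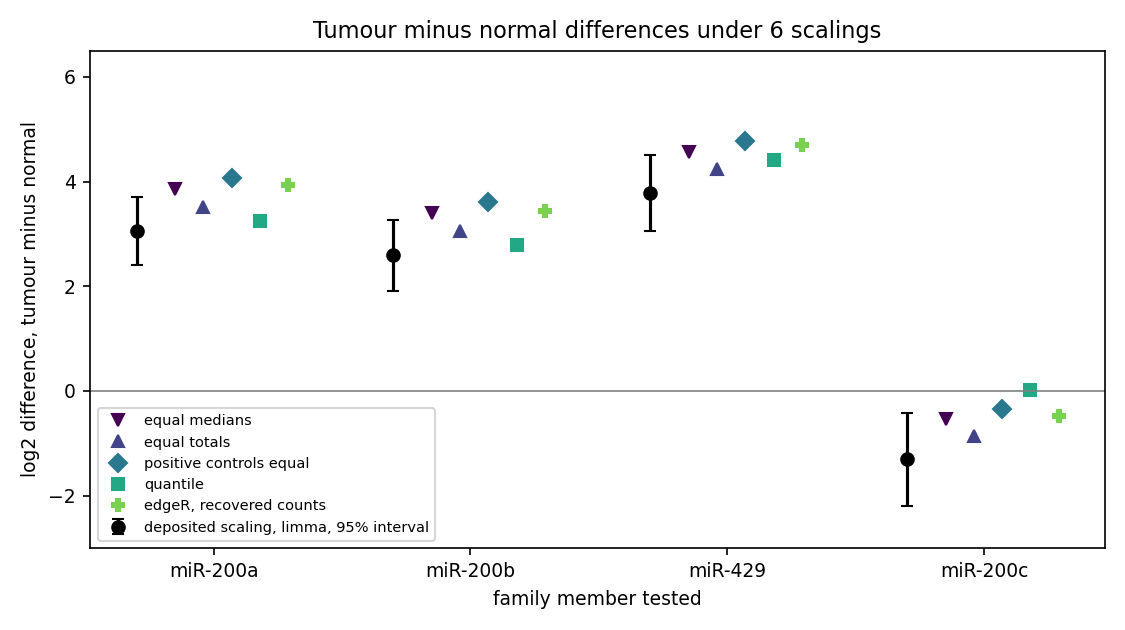
Log2 difference, tumour minus normal, of the 4 members tested; black points with bars are the deposited scaling with limma's 95% interval, coloured symbols are other scalings and edgeR on recovered counts. The chromosome 4 members lie between 2.59 and 4.77 throughout, and miR-200c between -1.31 and 0.014.

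Profiles over the 4 samples were compared by Euclidean distance between centred log2 values. The 3 nearest kept miRNAs outside the family were the same for each chromosome 4 member. Of these, miR-96, of a cluster often raised in carcinomas, was nearest to miR-200b at a distance of 0.68 and to miR-429 at 1.80. MiR-199a-5p, known from hepatic stellate cells, was the nearest of the 3 to miR-200a at 1.02. It had 557 and 313 scaled counts in the tumours against 83.4 and 103 in the normal livers. The other was miR-125a-5p, at 0.89 from miR-200b. Among themselves miR-200a and miR-200b lay 0.71 apart, miR-200a and miR-429 1.01, and miR-200b and miR-429 1.22. For miR-200a and miR-429 both cluster mates thus lay nearer than any miRNA outside the family.

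Other miRNAs typical of epithelial cells did not move as one. Of 7 listed, 5 were kept, and limma called 2 higher and 2 lower, where it called 7.97% of all 276 higher and 46.7% lower. The median log2 difference of the 5 was -0.90, against -0.90 over all 276. MiR-96 had 195 and 213 scaled counts in the tumours against 50 and 48.2 in the normal livers (log2 difference 2.03, limma adjusted p = 0.00274). MiR-183, encoded with it, had 28.8 and 45.2 against 10.4 and 13.8 and was detected in neither normal liver (adjusted p = 0.00964). It passed the filter only through the tumours, where it is high. The falls were miR-203 and miR-205, both known from stratified epithelium. MiR-203 had 37.9 and 30.8 in the tumours against 179 and 163 in the normal livers (-2.29, adjusted p = 0.00274), and miR-205 had 54.5 and 77.8 against 273 and 216 (-1.88, adjusted p = 0.00359). EdgeR called both falls (log2 difference -1.44, adjusted p = 0.0034, and -1.06, adjusted p = 0.012), and with the positive controls made equal neither was called by limma. Of 4 miRNAs linked to YAP, 3 were kept and limma called 1 lower, against 46.7% of all 276. It was miR-130b, with 20.1 and 26.2 in the tumours against 60.5 and 62 in the normal livers (-1.37, limma adjusted p = 0.00726). EdgeR, which called 25.7% of all 276 higher, did not call miR-130b and called miR-130a higher. Limma did not call miR-130a (0.48, adjusted p = 0.158).

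Markers of other cells were read against the same background, 7.97% called higher and 46.7% lower in limma and 25.7% and 14.1% in edgeR. Of 6 mesenchymal and stellate cell miRNAs 5 had probes and were kept, and 2 rose, both arms of miR-199a (log2 difference 1.63 for miR-199a-3p and 2.16 for miR-199a-5p, limma adjusted p = 0.00964 and 0.0036). EdgeR called 4 of the 5 higher. The summed level of the 5 was 2428 and 1455 scaled counts in the tumours and 1141 and 958 in the normal livers, and none was at 0. Of 8 hepatocyte miRNAs 7 had probes and were kept, and limma called all 7 lower. Their sums were 15475 and 19734 in the tumours and 32825 and 36838 in the normal livers. The log2 difference was -0.90 for miR-122, against a median of -0.90 over all 276, and -1.38 for miR-192. EdgeR called 2 of the 7 lower and did not call miR-122 (log2 difference -0.037, adjusted p = 0.921). With the positive controls made equal, 1 of the 7 was called lower, miR-802. It had 7.9 and 5.43 scaled counts in the tumours against 104 and 138 in the normal livers. MiR-802 passed the filter only through the normal livers, where it is high. Of 6 leukocyte miRNAs 0 rose and 2 fell in limma, whereas edgeR called 3 higher and 1 lower; the log2 difference was 0.083 for miR-142-3p and -2.26 for miR-142-5p. Of 3 erythroid miRNAs limma called 0 and edgeR 3 higher, and of 2 endothelial miRNAs limma called 1 lower and edgeR 1 higher. The log2 differences in limma were 0.47 for miR-451 and -0.17 for miR-144, neither called, and -0.24 for miR-126-3p, not called, and -0.93 for miR-126-5p, the fall. Of 6 muscle and neuron miRNAs, which liver is not expected to hold, 4 were kept and 1, miR-124, was called lower, while miR-1 (-0.28) and miR-133a (-0.91) were not called. The part of these cells in the rise of the chromosome 4 members was not tested, and in whole tissue more cells of a type and more RNA per cell cannot be told apart.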

How the data were processed

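The members and lists, and the tests, were chosen with earlier results of these data known. Per the labels' protocols, total RNA was extracted with TRIzol and assayed with nCounter miRNA Expression Assays. The deposited signal values are probe counts that the authors multiplied by 1 factor per sample; no source used here gives the software or the normalization method. Dividing by the factor gave whole counts for 100% of values in every sample (within 0.1 count); the control probes and those for plants or worms carried no factor. Replicates differed by more than counting noise (per probe, a chi-square of 34.1 for the tumours and 3.24 for the normal livers), so each counted once.

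The main test was limma 3.58.1 (lmFit, eBayes) on log2(value + 1), tumour minus normal. A miRNA was kept where its mean exceeded the mean plus 2 SD of the negative controls' own means, 3.93; taking the SD over every control and sample instead gave 5.57. EdgeR 4.0.16 (quasi-likelihood, TMM) and DESeq2 1.42.0 were run on recovered counts; edgeR called 71 of 276 higher and 39 lower. Scripts were tested on simulated data. Named miRNAs were all members, the first 2 names of each list and the 3 nearest profiles outside the family. MiR-203, miR-205, miR-124 and miR-802 were named after their values were seen. Same-numbered samples were known to share only a number. The correlation of their deviations, 0.042 over 276 miRNAs, cannot tell whether they also shared a mouse or a run.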

Additional observations from a re-analysis of the deposited data

How the results depend on the processing

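Under 19 planned settings and 1 added after seeing the data, a pooled-SD filter that kept 116 miRNAs, miR-200a kept its rise in all 20 (log2 difference 2.55 to 4.06, adjusted p up to 0.0422). MiR-200b (2.25 to 3.61) and miR-429 (2.57 to 6.94) lost the call only with the mean negative control subtracted (2.92 and 6.94), so 1 member was then called higher in place of 3; the cause was not tested. MiR-200c lost its call with equal medians (-0.55), equal totals (-0.87), equal positive controls (-0.34), edgeR (-0.48) and background subtraction (-0.79), and reversed with quantile normalization (0.014); leaving out 1 sample gave -1.69 to -0.94. Members called lower were 0 under these, under DESeq2 (which gave miR-200c no adjusted p) and under both filters that removed it, and 0 to 1 with 1 sample left out. The gap between clusters fell to 3.54 and 2.84 with pseudocounts of 10 and 30, by construction, and was 3.69 to 4.67 with 1 sample left out. The shift of miR-429 over miR-200b was 0.78 with a pseudocount of 10 and 4.03 after subtraction (0.996 to 1.38 with 1 sample left out). That of miR-200a over miR-429 was -3.36 after subtraction (-1.09 to -0.37). Subtraction left miR-429 at 0 in normal liver 1, so its 6.94 and the shifts of 4.03 and -3.36 depend on the added pseudocount of 1. With the replicate block no call on a member changed (miR-200a 3.05, miR-200b 2.59, miR-429 3.78, miR-200c -1.31), and calls over all miRNAs were 19 higher and 143 lower, against 22 and 129 without it. Several other settings moved the lower total further. The totals were 59 higher and 50 lower with equal medians, 34 and 74 with equal totals, and 44 and 10 with equal positive controls. They were 19 and 14 with quantile normalization and 8 and 0 with the mean negative control subtracted. Over other numbers of miRNAs they were 59 and 13 of 180 in DESeq2, 16 and 276 of 566 with no filter, and 19 and 34 of 116 with the pooled-SD filter. Detection of miR-200c and miR-141 is limited by counts of 6 to 33 per sample against thresholds of 11.2 to 18.3.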
